A study of Mus musculus with 4 samples.

Results

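The 42 amino acid transporter genes of 6 solute carrier families, SLC1, SLC3, SLC7, SLC36, SLC38 and SLC43, were followed in RNA of mouse pancreas. Members were chosen by symbol, as every gene named Slc, a family number of 1, 3, 7, 36, 38 or 43, the letter a and a final number. They are 42 of the 55291 gene symbols in the deposited count tables, and the rule uses no measured value. The 2 libraries labelled knockout came from Pdx1-Cre+, poh1f/f mice, in which both copies of poh1 were flanked by loxP sites. The 2 control libraries came from Pdx1-Cre+, poh1f/+ mice, which carried the same Cre and 1 floxed copy. Both groups therefore carried the recombinase, and the controls were not wild type. Pdx1-Cre recombines in the embryonic cells that give rise to the pancreatic epithelium (acini, ducts and islets), so immune, vascular, stromal and fat cells of the tissue keep the gene. Poh1 is an older name of Psmd14, the proteasome lid subunit that cuts ubiquitin chains from proteins about to be degraded. The labels give neither the age of the mice nor whether the libraries of a group came from separate animals, so p-values measure the spread between libraries, which may be technical.

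Amino acid transporters move amino acids across the plasma membrane or out of lysosomes, and most couple that movement to sodium, protons, potassium or another amino acid. SLC1 carriers concentrate glutamate or exchange small neutral amino acids. SLC7 light chains reach the membrane bound to a heavy chain, Slc3a2 or Slc3a1. SLC38 carriers take up glutamine, alanine and related amino acids, and acinar cells, which make more protein than most cells, are known for several of them. Proteasomes return amino acids to the cell by degrading protein.

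Depth was 27470926 and 27849730 counts in the libraries labelled knockout, against 22875618 and 24635792 counts in the control libraries. Levels are given in CPM, counts per 1000000 counts of the scaled library, and 1 count equalled 0.0342 to 0.0455 CPM. The targeted gene did not show the loss that the labels name. Psmd14 had 65.9 and 65.2 CPM in the libraries labelled knockout, against 61.6 and 52.9 CPM in the control libraries, a log2 fold change of 0.20 ± 0.11 (SE) with a 95% interval of -0.09 to 0.48 and an edgeR adjusted p of 0.260. The gene was thus measured as no lower in the libraries labelled knockout, so higher and lower below compare the labels. Counts per gene do not show whether the floxed exons were lost.

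Marker RNA of several cell types differed with the label. Summed CPM of 18 adipocyte markers was 7110 and 5963 in the libraries labelled knockout, against 937.5 and 1642 in control, with 15 of 18 called higher, 0 lower and Elovl3 at 0 in control. Acinar markers, of which 24 of 25 were in the tables, summed to 316.7 and 1068 CPM in the libraries labelled knockout, against 19640 and 3931 CPM in control. Of 23 acinar markers tested, 15 were called lower and 0 higher (2 lower without control replicate 1 and 6 with the replicate number as a block), and Amy2a5 was at 0 in both libraries labelled knockout. Lymphocyte markers summed to 1727 and 1841 CPM labelled knockout, against 143.7 and 99.1 CPM in control, with 19 of 19 called higher. Macrophage markers summed to 5589 and 5316 CPM labelled knockout, against 9215 and 8215 CPM in control, and fibroblast and stellate markers to 13240 and 10930 CPM labelled knockout, against 29400 and 35020 CPM in control. Duct markers summed to 1050 and 1241 CPM labelled knockout, against 4399 and 3547 CPM in control, and islet markers to 675.8 and 361.2 CPM labelled knockout, against 2349 and 1440 CPM in control. Replicate 2 labelled knockout also carried intestinal RNA markers: 18 enterocyte markers summed to 1382 CPM there, against 52.5 CPM in replicate 1 labelled knockout and 207 and 141 CPM in control. In bulk tissue, fewer cells of a type and less RNA per cell cannot be told apart. The part of these differences in the transporter results was not tested, and ratios to marker sums below are description only.

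Of the 42 members, 37 passed the filter on low counts and were tested with edgeR's quasi-likelihood F test, adjusted over 19134 genes. At an adjusted p under 0.05, 9 members were called higher in the libraries labelled knockout and 9 lower, which is 24.3% of the tested members in each direction. Over all tested genes 12.1% were called higher, 9.95% lower and 22.1% in either direction, against 48.6% of the members. Without scaling beyond the library total, 64.9% of the calls over all genes were higher, against 54.9% with TMM scaling. The median member log2 fold change was -0.07, beside -0.0018 over all tested genes, so the members spread in both directions around a centre near 0. They ranged from -3.16 (Slc38a5) to 3.43 (Slc7a10). Counts depended most on control replicate 1: without it 3 members were called higher and 1 lower, and 5.52% of all genes were called. Without replicate 1 labelled knockout 13 were called higher, namely 8 of the 9 and Slc1a1, Slc3a1, Slc7a9, Slc7a14 and Slc7a15, and 7 were called lower. The direction of all 18 called members was the same in each alternative fit. Groups are said below not to overlap where both libraries labelled knockout lay on the same side of both controls. This held for 11 of the 19 tested members that were not called, so it does not by itself mark a difference. Its share over all tested genes was not counted.

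**Figure D1:**
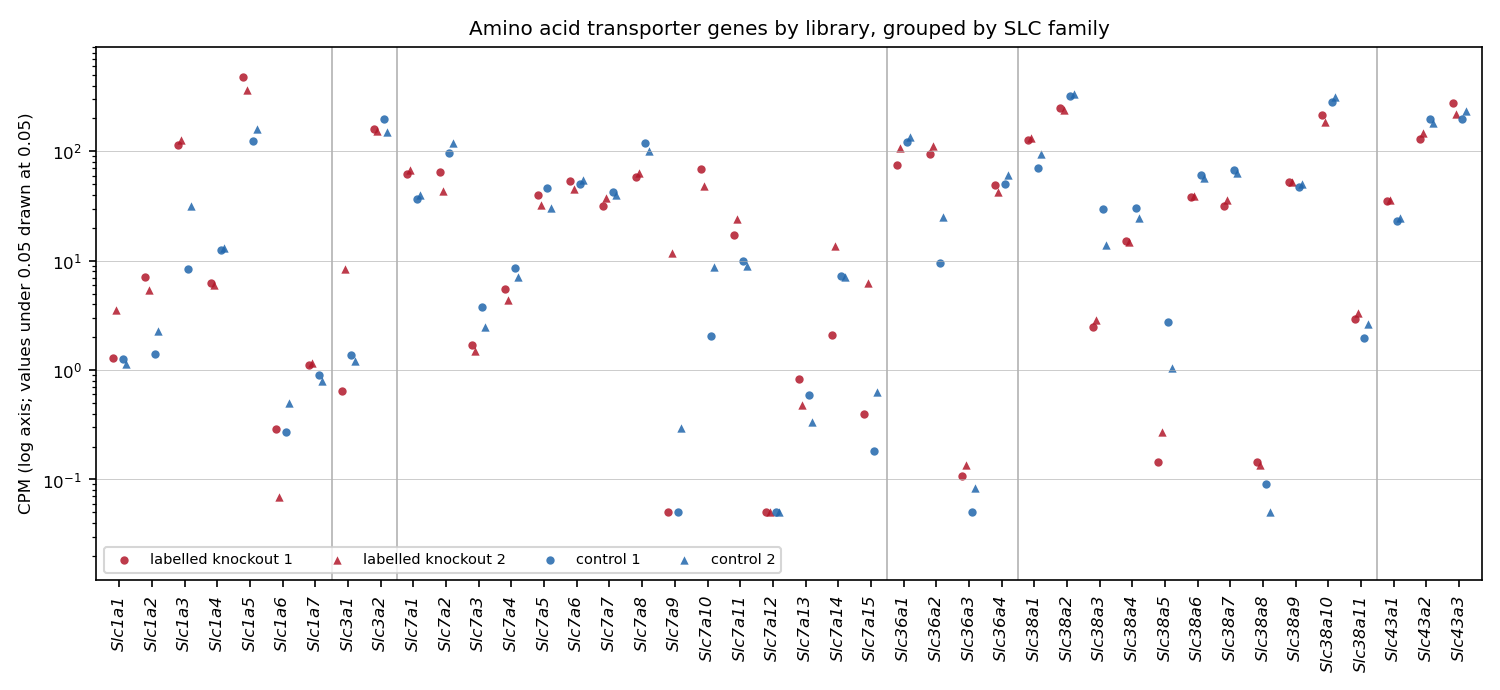
Level of each of the 42 amino acid transporter genes in each library, in CPM on a log axis, with genes grouped by family from left to right. Red symbols are the 2 libraries labelled knockout and blue symbols the 2 control libraries. Slc1a5 is at 482 and 367 CPM labelled knockout, against 124 and 159 CPM in control, and Slc7a9 has a level above 1 CPM in replicate 2 labelled knockout only.

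**Figure D2:**
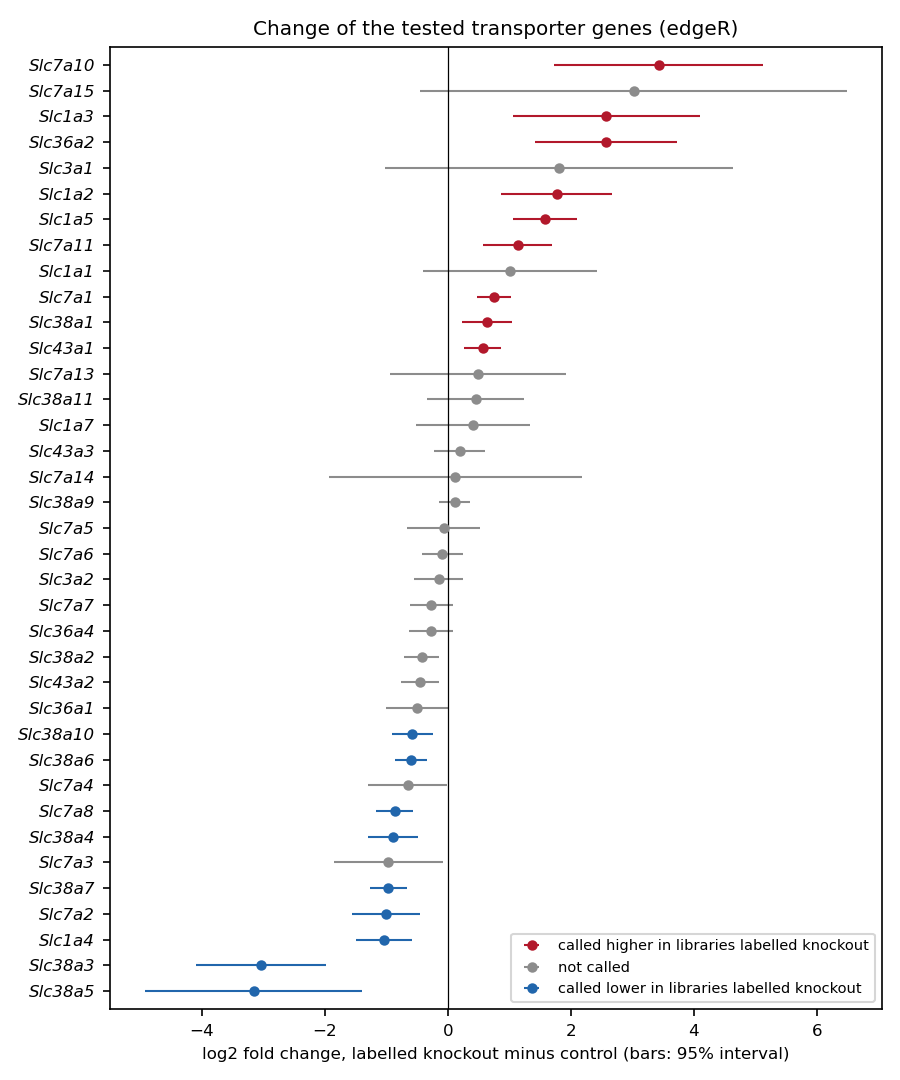
Fitted log2 fold change of the 37 tested members, labelled knockout minus control, with bars of the 95% interval, and the edgeR call in colour. The 9 members called higher run from 0.56 to 3.43 and the 9 called lower from -3.16 to -0.57.

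Summed by family, transporter RNA stood higher in one family and lower in another, while its total was close. All members together summed to 2571 and 2438 CPM in the libraries labelled knockout, against 2289 and 2392 CPM in the control libraries. SLC1 genes summed to 613 and 509.6 CPM labelled knockout, against 148 and 209 CPM in control, a log2 ratio of the means of 1.65. Slc1a5 alone made up 75.7% of that sum labelled knockout and 79.2% in control. SLC38 genes summed to 732 and 704 CPM labelled knockout, against 917 and 950.4 CPM in control, a log2 ratio of -0.38, and Slc38a2 was the largest contributor to that sum in both groups. In both of these families the groups did not overlap.

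The other families differed less in sum. SLC7 genes gave 407 and 399 CPM labelled knockout, against 424 and 421 CPM in control. SLC36 genes gave 219 and 263 CPM labelled knockout, against 183 and 222 CPM in control. For SLC3 the sums were 160.2 and 161 CPM labelled knockout, against 197 and 152 CPM in control, and for SLC43 they were 439 and 401 CPM labelled knockout, against 419.8 and 438 CPM in control. The last 3 of these families had sums that overlapped between the groups, and within SLC7 and SLC36 single genes differed by more than the sums. Slc36a1 made up 38% of the SLC36 sum in the libraries labelled knockout and 64% in control.

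**Figure D3:**
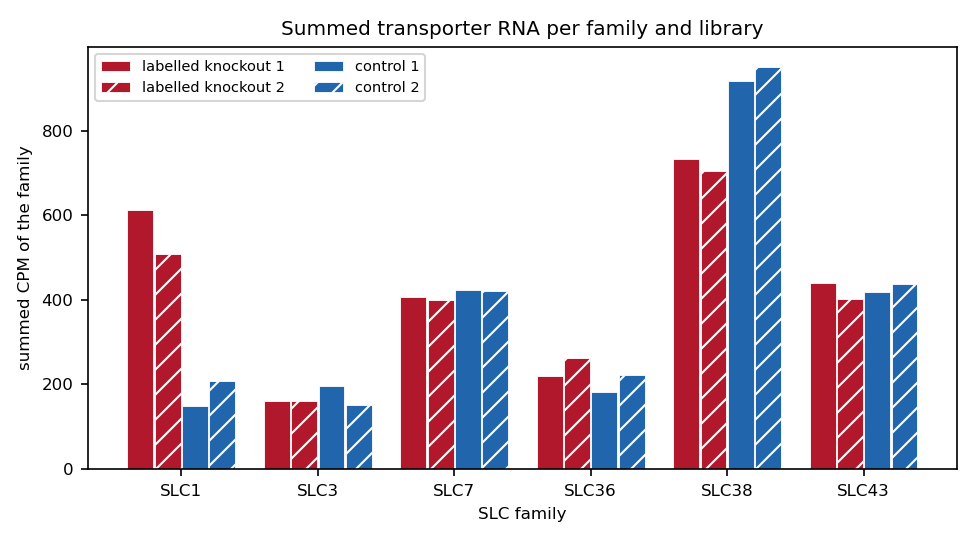
Summed CPM of each transporter family in each library, with the libraries labelled knockout left of the control libraries and bars starting at 0. The SLC1 sum is 613 and 509.6 CPM labelled knockout, against 148 and 209 CPM in control, and the SLC38 sum is lower in both libraries labelled knockout.

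The SLC1 family holds 5 glutamate carriers and 2 neutral amino acid exchangers, and the 2 exchangers went in opposite directions. Slc1a5 (chr7:16781340-16798274, plus strand, GRCm38), the exchanger ASCT2 that brings glutamine into growing cells, had 482 and 367 CPM in the libraries labelled knockout, against 124 and 159 CPM in the control libraries. Both libraries labelled knockout lay above both controls, and the log2 fold change was 1.58 ± 0.21 (SE), edgeR adjusted p = 0.010. Per kilobase of exon (CPM per kb) Slc1a5 was the most abundant of all 42 members in the libraries labelled knockout, with 101.8 ± 19.6 CPM per kb (SD, n = 2), and the fifth in control, with 33.9 ± 6.05 CPM per kb (SD, n = 2). Without control replicate 1 the call was lost (log2 fold change 1.41, edgeR adjusted p = 0.0617). Slc1a4 (chr11:20302180-20332713, minus strand), the exchanger ASCT1 for serine, alanine and cysteine, was lower, with 6.30 and 6.06 CPM in the libraries labelled knockout, against 12.4 and 13 CPM in the control libraries. Its log2 fold change was -1.04 ± 0.18 (SE), edgeR adjusted p = 0.0191, and the adjusted p was 0.0758 without control replicate 1 and 0.0634 without control replicate 2.

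Glutamate carriers were called in 2 of 5 cases, both higher. Slc1a3 (chr15:8634124-8710764, minus strand), the carrier GLAST, best known from astrocytes, had 114 and 126 CPM in the libraries labelled knockout, against 8.46 and 31.8 CPM in the control libraries. The libraries labelled knockout lay apart from the controls, which themselves differed from each other by 3.75 times. The log2 fold change was 2.58 ± 0.59 (SE), edgeR adjusted p = 0.0379, with 1.93 without control replicate 1 and 3.83 without control replicate 2. Slc1a2 (chr2:102658659-102790784, plus strand), the main glutamate carrier of brain, also found in pancreas, stayed under 10 CPM with 7.16 and 5.41 CPM in the libraries labelled knockout, against 1.41 and 2.26 CPM in the control libraries. Its groups did not overlap and the log2 fold change was 1.77 ± 0.35 (SE), edgeR adjusted p = 0.0267, but the adjusted p was 0.102 without control replicate 1 and 0.0508 without control replicate 2. Slc1a7, a carrier known from retina, was at 0.795 to 1.16 CPM and was not called (edgeR adjusted p = 0.450). Slc1a6, known from cerebellum, had 8 and 2 counts labelled knockout, against 6 and 12 counts in control, and was not tested.

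Heavy chains of the SLC3 family were not called. Slc3a2 (chr19:8706882-8723369, minus strand), the heavy chain CD98 that carries 6 of the SLC7 light chains to the membrane, had 159.5 and 153 CPM in the libraries labelled knockout, against 196 and 150.4 CPM in the control libraries. Control replicate 2 lay below both libraries labelled knockout and control replicate 1 above them. The log2 fold change was -0.15 ± 0.16 (SE), edgeR adjusted p = 0.525, with a 95% interval of -0.55 to 0.25, and without control replicate 1 it was 0.06. Slc3a1, the heavy chain rBAT of kidney and intestine, was at 0.645 CPM in replicate 1 and 8.39 CPM in replicate 2 labelled knockout, against 1.36 and 1.21 CPM in control, and was not called (edgeR adjusted p = 0.291).

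Among the light chains that pair with Slc3a2, RNA of Slc7a10 and Slc7a11 was higher and RNA of Slc7a8 lower in the libraries labelled knockout. Slc7a10 (chr7:35186385-35201114, plus strand), the carrier Asc-1 for glycine, serine and alanine and a marker of white fat cells, had 69.5 and 48.3 CPM in the libraries labelled knockout, against 2.05 and 8.83 CPM in the control libraries. This was the largest rise of the tested members, at 3.43 ± 0.67 (SE), edgeR adjusted p = 0.0252, with 2.74 without control replicate 1 and 4.84 without control replicate 2. Exons of Lrp3 on the opposite strand cover 17.9% of its exonic length, and Lrp3 had 36.1 and 29.3 CPM labelled knockout, against 32.0 and 32.8 CPM in control. Slc7a8 (chr14:54722209-54781946, minus strand), the carrier LAT2 for neutral amino acids, had 58.1 and 62.8 CPM in the libraries labelled knockout, against 119 and 101 CPM in the control libraries. Its log2 fold change was -0.86 ± 0.12 (SE), edgeR adjusted p = 0.0113, and 0.0517 was the adjusted p without control replicate 1. Slc7a11 (chr3:49892526-50443614, minus strand), the light chain xCT that takes up cystine in exchange for glutamate for glutathione synthesis, had 17.3 and 24.3 CPM in the libraries labelled knockout, against 9.87 and 9.04 CPM in the control libraries. Both libraries labelled knockout lay above both controls (1.14 ± 0.22 (SE), edgeR adjusted p = 0.0244), while the adjusted p was 0.113 without control replicate 1 and 0.103 without control replicate 2.

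The other light chains of Slc3a2 were not called. Slc7a5 (chr8:121881150-121907694, minus strand), the carrier LAT1 for leucine and other large neutral amino acids, had 39.8 and 32.7 CPM in the libraries labelled knockout, against 45.8 and 30.2 CPM in the control libraries. The groups overlapped and the log2 fold change was -0.07 ± 0.23 (SE), edgeR adjusted p = 0.856. The 95% interval was -0.66 to 0.52, so the data do not settle whether there is a difference within that interval. Slc7a6 and Slc7a7, the y+LAT carriers that exchange cationic for neutral amino acids, ranged from 31.5 to 55 CPM over the 4 libraries and were not called (edgeR adjusted p = 0.642 and 0.212).

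Per kilobase of exon, which allows levels of different genes to be set side by side, the make-up of the 6 light chains differed between the groups. Slc7a10 held 42.3% and 34.1% of the summed light chain CPM per kb in the libraries labelled knockout, against 1.57% and 7.30% in control. Slc7a8 held 14.9% and 18.7% labelled knockout, against 38.4% and 35.3% in control, where it was the most abundant of the 6. Slc7a11 held 1.13% to 2.60% in all 4 libraries. The summed light chains were 77.8 and 67.1 CPM per kb labelled knockout, against 61.7 and 57.3 CPM per kb in control. Per unit of Slc3a2 that was 1.72 and 1.55 labelled knockout, against 1.11 and 1.35 in control (CPM per kb of the light chains over CPM per kb of Slc3a2), a description with no test.

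**Figure D4:**
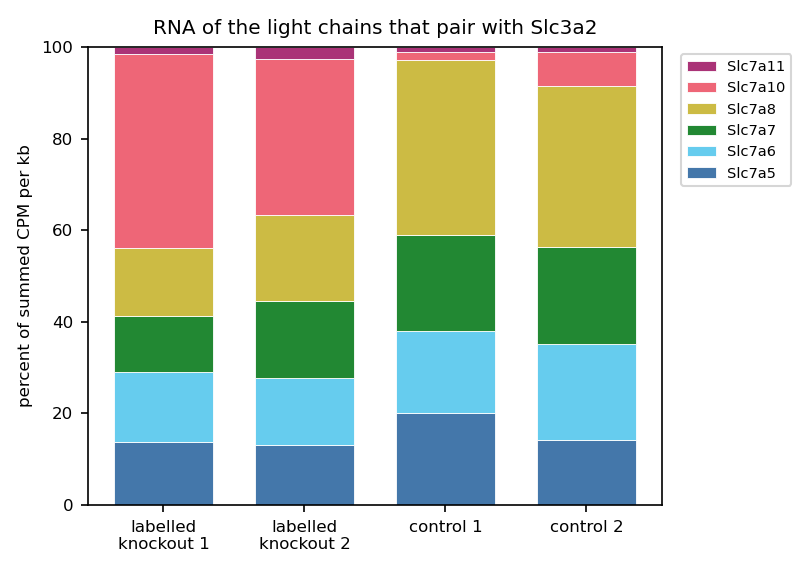
Share of each of the 6 light chains that pair with Slc3a2 in their summed CPM per kb of exon, in percent, for each library. Slc7a10 holds 42.3% and 34.1% in the libraries labelled knockout, against 1.57% and 7.30% in control, and Slc7a8 holds the larger share in control.

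The promoters of Slc7a11, Slc1a4 and Slc38a7 are shown because they carry the motifs through which amino acid supply or lysosomal load is known to act on such genes. The C/EBP-ATF response element, searched as TGATGNAAN on both strands, is the element at which ATF4 acts when amino acids run short. The E-box CACGTG, which reads alike on both strands, is bound by MITF and TFE factors, among others. Each window runs from 250 bases before to 50 bases after the RefSeq start on GRCm38.p6, 5′ to 3′ on the gene's strand, with the motif in capitals.
Slc7a11, chr3:50443564-50443863, minus strand: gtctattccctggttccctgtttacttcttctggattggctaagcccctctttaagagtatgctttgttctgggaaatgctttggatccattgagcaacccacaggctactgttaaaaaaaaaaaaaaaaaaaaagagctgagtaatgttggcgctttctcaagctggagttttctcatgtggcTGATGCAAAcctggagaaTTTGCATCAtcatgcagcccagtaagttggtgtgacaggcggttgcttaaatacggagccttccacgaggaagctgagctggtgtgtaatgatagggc
Slc1a4, chr11:20332664-20332963, minus strand: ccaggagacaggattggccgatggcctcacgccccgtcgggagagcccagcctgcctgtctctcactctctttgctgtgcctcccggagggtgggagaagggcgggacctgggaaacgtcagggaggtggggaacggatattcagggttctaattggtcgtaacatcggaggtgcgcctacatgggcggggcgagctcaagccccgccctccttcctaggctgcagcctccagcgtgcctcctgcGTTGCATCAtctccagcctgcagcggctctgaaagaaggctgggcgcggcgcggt
Slc38a7, chr8:95853442-95853741, minus strand: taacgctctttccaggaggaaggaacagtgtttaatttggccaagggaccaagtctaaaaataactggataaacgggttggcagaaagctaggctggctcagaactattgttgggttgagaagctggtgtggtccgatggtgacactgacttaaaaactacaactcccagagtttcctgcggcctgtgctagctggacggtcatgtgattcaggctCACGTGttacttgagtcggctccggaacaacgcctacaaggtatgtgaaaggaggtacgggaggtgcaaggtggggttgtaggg

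Slc7a11 holds 2 response elements in opposite orientation, beginning 66 and 48 bases before its start, and Slc1a4 holds 1 that begins 5 bases before its start. The E-box of Slc38a7 begins 34 bases before its start. Of the 42 members 31 had a promoter in the RefSeq table, with 42 windows between them. The response element was in 3 of the 31 (Slc1a4, Slc7a7 and Slc7a11). Counted by window it was in 4 of the 42, beside 3.95% of all 32851 promoter windows of the same length. Among the 4 are overlapping windows of Slc7a7 that share an element, which was therefore counted in each of them. The E-box was in 7 of the 31 (Slc1a6, Slc1a7, Slc36a1, Slc38a5, Slc38a7, Slc43a1 and Slc7a14). Counted by window it was in 7 of the 42, beside 7.15% of all windows. Members with a response element went in different directions, since Slc7a11 was called higher, Slc1a4 lower and Slc7a7 was not called. Of the 7 with an E-box, Slc43a1 was called higher and Slc38a5 and Slc38a7 lower. No member had both motifs. A match describes letters in the window and is not shown to be a site in use.

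Carriers of cationic amino acids, which work without a heavy chain, went in opposite directions. Slc7a1 (chr5:148327410-148399904, minus strand), the widely expressed arginine and lysine carrier CAT1, had 62.1 and 67.1 CPM in the libraries labelled knockout, against 36.8 and 40.1 CPM in the control libraries. Slc7a2 (chr8:40862396-40922308, plus strand), the arginine carrier CAT2 of liver, muscle and activated macrophages, had 64.2 and 43.2 CPM in the libraries labelled knockout, against 96.7 and 119 CPM in the control libraries. Neither gene's groups overlapped: Slc7a1 was higher (0.75 ± 0.11 (SE), edgeR adjusted p = 0.0124) and Slc7a2 lower (-1.0 ± 0.22 (SE), edgeR adjusted p = 0.0335). Slc7a1 lost its call without control replicate 1 (edgeR adjusted p = 0.0643), and Slc7a2 lost it without control replicate 1 (0.104) or 2 (0.126). An exon of the lincRNA Gm26584 on the opposite strand covers 6.95% of the exonic length of Slc7a2. Slc7a3 and Slc7a4, a cationic carrier and a relative of unsettled function, were at 1.51 to 8.64 CPM and were not called (edgeR adjusted p = 0.109 and 0.124).

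Other SLC7 members were scarce. Slc7a13, a light chain known from kidney, was at 0.335 to 0.824 CPM and was not called (edgeR adjusted p = 0.562). Slc7a12 had 0 counts in all 4 libraries, and 3 counts, the limit that a count of 0 allows, would be 0.103 to 0.136 CPM.

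SLC36 carriers move small amino acids with protons, and 1 of 4 was called. Slc36a2 (chr11:55158470-55185077, minus strand), a carrier of glycine and proline and a surface marker of brown and beige fat cells, had 95.3 and 112 CPM in the libraries labelled knockout, against 9.51 and 25.1 CPM in the control libraries. Both libraries labelled knockout lay far above both controls, and the log2 fold change was 2.58 ± 0.45 (SE), edgeR adjusted p = 0.0198. It was 2.05 without control replicate 1 and 3.45 without control replicate 2, and the call stayed. Slc36a1, the lysosomal member known to act upstream of mTORC1, had 74.9 and 108 CPM in the libraries labelled knockout, against 123 and 136 CPM in the control libraries, and was not called (-0.50 ± 0.19 (SE), edgeR adjusted p = 0.128). Without replicate 2 labelled knockout it was called lower (-0.79, edgeR adjusted p = 0.0192). Slc36a4, a carrier of proline and tryptophan, was at 42.6 to 60.7 CPM and was not called (edgeR adjusted p = 0.211), and Slc36a3, known from testis, had 0 to 4 counts and was not tested.

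Slc36a2, Slc7a10 and Slc1a3 were set beside the adipocyte markers, which were highest in replicate 1 labelled knockout and lowest in control replicate 1. Slc7a10 put the 4 libraries in the same order as the marker sum, as did Slc1a5 and Slc1a2, while Slc36a2 and Slc1a3 were higher in replicate 2 than in replicate 1 labelled knockout. Slc36a2, Slc7a10 and Slc1a3 were each higher in control replicate 2 than in control replicate 1, by 2.64, 4.31 and 3.75 times, and the summed adipocyte markers by 1.75 times. Single markers differed from that sum. In control replicates 1 and 2 Plin1 was at 15.4 and 58.7 CPM, Adipoq at 30.7 and 102 CPM and Cidec at 17.4 and 97.1 CPM. Lpl, at 402 and 294 CPM, Cidea and Pparg were not higher in control replicate 2. The 1.75 times is therefore not a measure of fat content. Per 1000 CPM of the 18 markers, Slc36a2 stood at 13.4 and 18.7 CPM in the libraries labelled knockout, against 10.1 and 15.3 CPM in control. Slc1a3 stood at 16.1 and 21.2 CPM labelled knockout, against 9.02 and 19.3 CPM in control. On this scale the groups of both genes overlapped. Slc7a10 stood at 9.78 and 8.11 CPM per 1000 marker CPM labelled knockout, against 2.18 and 5.38 CPM in control, and its groups did not overlap. Slc1a5 was lower on this scale, at 67.8 and 61.5 CPM labelled knockout, against 131.9 and 97.1 CPM in control. Lpl and Fabp4 were the largest parts of the marker sum in control. In control replicate 1 they were 402 and 170 of the 937.5 CPM, and in replicate 1 labelled knockout 998 and 1174 of the 7110 CPM. The make-up of the sum thus differed between libraries. The ratios, those of Slc7a10 and Slc1a5 included, therefore do not measure a level per adipocyte RNA. These ratios were chosen after the values were seen and carry no test.

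**Figure D5:**
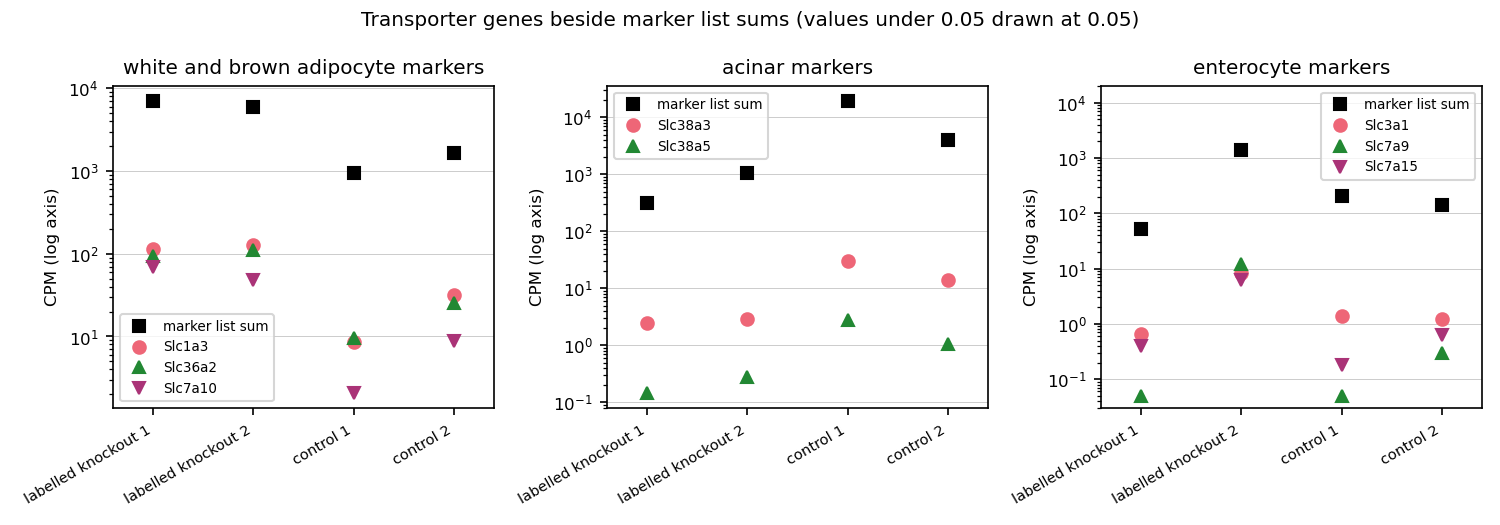
Levels of 8 transporter genes beside the summed CPM of the marker list drawn with them, per library, on log axes, with the libraries labelled knockout on the left. Adipocyte markers are drawn with Slc1a3, Slc36a2 and Slc7a10, acinar markers with Slc38a3 and Slc38a5, and enterocyte markers with Slc3a1, Slc7a9 and Slc7a15. The enterocyte sum is 1382 CPM in replicate 2 labelled knockout and at most 207 CPM in the other libraries.

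SLC38 carriers, sodium-coupled carriers of glutamine and other neutral amino acids, were called lower in 6 cases and higher in 1. The 2 system N carriers, known from exocrine pancreas and liver, fell most. Slc38a3 (chr9:107650634-107669530, minus strand), the glutamine and histidine carrier SNAT3, had 2.47 and 2.88 CPM in the libraries labelled knockout, against 29.97 and 14 CPM in the control libraries. Slc38a5 (chrX:8271133-8280179, plus strand), the carrier SNAT5, was near the limit of detection, with 4 and 8 counts (0.143 and 0.274 CPM) labelled knockout, against 61 and 25 counts (2.77 and 1.05 CPM) in control. Both genes were low in both libraries labelled knockout and highest in control replicate 1. The log2 fold changes were -3.04 ± 0.42 (SE), edgeR adjusted p = 0.0114, for Slc38a3 and -3.16 ± 0.69 (SE), edgeR adjusted p = 0.0339, for Slc38a5. Slc38a3 kept its call whichever library was left out, with log2 fold changes of -2.38 without control replicate 1 and -3.48 without control replicate 2. Slc38a5 lost its call without control replicate 1 (log2 fold change -2.29, edgeR adjusted p = 0.153), and in limma-voom the adjusted p was 0.0608.

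The acinar markers put the 4 libraries in the same order as both genes, with sums of 316.7 and 1068 CPM labelled knockout, against 19640 and 3931 CPM in control. Per 1000 CPM of acinar markers, Slc38a3 stood at 7.81 and 2.69 CPM in the libraries labelled knockout, against 1.53 and 3.56 CPM in control. Slc38a5 stood at 0.452 and 0.256 CPM labelled knockout, against 0.141 and 0.266 CPM in control. On this scale, also chosen after the values were seen, the groups of both genes overlapped. In control replicate 2 the marker sum was 0.200 times that of control replicate 1, Slc38a3 was 0.466 times and Slc38a5 0.377 times.

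System A carriers, which take up alanine, serine and glutamine, did not move together. Slc38a1 (chr15:96571418-96642913, minus strand), widely expressed and best known from neurons, was higher, with 128 and 132 CPM in the libraries labelled knockout, against 71 and 95.1 CPM in the control libraries. Slc38a4 (chr15:96994820-97055956, minus strand), best known from liver, was lower, with 15.1 and 14.7 CPM in the libraries labelled knockout, against 30.7 and 24.7 CPM in the control libraries. Slc38a2 (chr15:96687392-96699730, minus strand), the member that rises when cells lack amino acids, had 248 and 237 CPM in the libraries labelled knockout, against 320.2 and 331 CPM in the control libraries. In all 3 genes the groups did not overlap. Slc38a1 was called (0.64 ± 0.16 (SE), edgeR adjusted p = 0.0459), as was Slc38a4 (-0.89 ± 0.16 (SE), edgeR adjusted p = 0.0212), while Slc38a2 just missed the threshold (-0.43 ± 0.11 (SE), edgeR adjusted p = 0.0536) and was called by DESeq2 and limma-voom. Slc38a1 lost its call without replicate 2 labelled knockout (0.0622) or control replicate 1 (0.0728), and Slc38a4 without control replicate 1 (0.0796).

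Of the lysosomal and less studied SLC38 members, Slc38a6, Slc38a7 and Slc38a10 were called lower. Slc38a7 (chr8:95835920-95853539, minus strand), a lysosomal exporter of glutamine and asparagine, had 31.5 and 35.7 CPM in the libraries labelled knockout, against 68.2 and 63.1 CPM in the control libraries. Both libraries labelled knockout lay below both controls, and its adjusted p was the smallest of all members (-0.97 ± 0.12 (SE), edgeR adjusted p = 0.00865). Without control replicate 1 the edgeR adjusted p was 0.0598. Slc38a6 (chr12:73286779-73354049, plus strand), an orphan member, had 38.2 and 39.3 CPM in the libraries labelled knockout, against 60.6 and 56.6 CPM in the control libraries. Slc38a10 (chr11:120103960-120151346, minus strand), a widely expressed carrier of the endoplasmic reticulum and Golgi, had 214 and 186 CPM in the libraries labelled knockout, against 284 and 312 CPM in the control libraries. Neither gene's groups overlapped, with log2 fold changes of -0.60 ± 0.10 (SE), edgeR adjusted p = 0.0187, for Slc38a6 and -0.57 ± 0.13 (SE), edgeR adjusted p = 0.0377, for Slc38a10. Slc38a6 lost its call without replicate 1 (0.0683) or 2 labelled knockout (0.0553) or control replicate 1 (0.0748). Slc38a10 lost it without any 1 of the 4 libraries (adjusted p 0.0751 to 0.253), without scaling beyond the library total (0.0527) and with the replicate number as a block (0.0818).

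The lysosomal arginine sensor of mTORC1, Slc38a9, was at 47.3 to 52.7 CPM (0.11 ± 0.10 (SE), edgeR adjusted p = 0.449). Slc38a11 was at 1.96 to 3.35 CPM and was not called (edgeR adjusted p = 0.338). Slc38a8, a carrier known from retina, had 4 and 4 counts labelled knockout, against 2 and 0 counts in control, and was not tested.

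SLC43 carriers showed 1 call. Slc43a1 (chr2:84838850-84863594, plus strand), the carrier LAT3 for branched-chain amino acids and phenylalanine, abundant in liver and pancreas, had 34.9 and 35.7 CPM in the libraries labelled knockout, against 23.1 and 24.6 CPM in the control libraries. The spread within each group was small and the groups did not overlap (0.56 ± 0.12 (SE), edgeR adjusted p = 0.0307). The call was lost without any 1 of the 4 libraries (adjusted p 0.0612 to 0.120) and with the replicate number as a block (0.0642). Slc43a2, the related carrier LAT4, had 129 and 147 CPM in the libraries labelled knockout, against 197 and 180.0 CPM in the control libraries, and was not called (-0.45 ± 0.12 (SE), edgeR adjusted p = 0.0557), although its groups did not overlap and DESeq2 called it lower. Slc43a3, which carries purine nucleobases, was the second most abundant member per kilobase in both groups, at 199 to 276 CPM, and was not called (edgeR adjusted p = 0.440).

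Slc7a9, Slc7a15, Slc1a1, Slc7a14 and the heavy chain Slc3a1 were highest in replicate 2 labelled knockout, and are described together because of those values. The first of them, Slc7a9, the light chain that takes up cystine in kidney and intestine together with Slc3a1, had 0 and 347 counts in the libraries labelled knockout, against 0 and 7 counts in control. It did not pass the low-count filter, and without the low-count filter its log2 fold change was 5.26 ± 2.25 (SE), edgeR adjusted p = 0.207. Slc7a15, a mouse relative of these light chains, had 0.394 and 6.30 CPM in the libraries labelled knockout, against 0.182 and 0.627 CPM in the control libraries. Slc1a1, the glutamate carrier of kidney and intestine, had 1.29 and 3.56 CPM in the libraries labelled knockout, against 1.27 and 1.13 CPM in the control libraries. Slc7a14, a lysosomal relative of the cationic carriers, had 2.08 and 13.5 CPM in the libraries labelled knockout, against 7.19 and 7.15 CPM in the control libraries. None of the 4 tested genes was called, and in each of them replicate 2 lay above the other 3 libraries.

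Enterocyte markers split the libraries labelled knockout in the same way. They summed to 52.5 and 1382 CPM labelled knockout, a fold of 26.3 between the replicates, against 207 and 141 CPM in control. Of the 18 markers 7 were tested and 0 were called (18 higher when replicate 1 labelled knockout was left out), and Alpi, Sis and Cdx2 were at 0 in replicate 1 labelled knockout and in both controls. Per 1000 CPM of these markers, Slc3a1 stood at 12.3 and 6.07 CPM in the libraries labelled knockout, against 6.59 and 8.63 CPM in control. Slc7a15 stood at 7.50 and 4.56 CPM labelled knockout, against 0.879 and 4.46 CPM in control. The groups of Slc3a1 overlapped on this scale and those of Slc7a15 did not. In control the marker sum came mostly from Reg3g (112 and 30.4 CPM), Krt20 (43.1 and 47.9 CPM) and Lgals4 (23.6 and 30.5 CPM). Fabp2 was at 0.091 and 0.167 CPM there, against 107 CPM in replicate 2 labelled knockout. In replicate 1 labelled knockout Lgals4 was 29.6 of the 52.5 CPM. Outside replicate 2 labelled knockout the ratios therefore do not measure a level per enterocyte RNA. Slc7a9 stood at 0 and 8.60 CPM per 1000 marker CPM labelled knockout, against 0 and 2.08 CPM in control. Without replicate 2 labelled knockout the log2 fold changes were -0.99 for Slc3a1, -0.05 for Slc7a15, 0.10 for Slc1a1 and -1.78 for Slc7a14, of which only Slc7a14 was called (edgeR adjusted p = 0.00477). Without replicate 1 labelled knockout these 4 and Slc7a9 were called higher, so their calls depended on which of these libraries was kept.

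Set side by side per kilobase of exon, the order of the members differed between the labels. In the libraries labelled knockout Slc1a5 led with 101.8 CPM per kb, followed by Slc43a3 with 55.3, Slc3a2 with 44.2, Slc36a2 with 31.8, Slc38a10 with 31.2, Slc7a10 with 27.9 and Slc38a2 with 27.4 CPM per kb. In control the order was Slc3a2 with 49.1, Slc43a3 with 48.4, Slc38a10 with 46.4, Slc38a2 with 36.9 and Slc1a5 with 33.9 CPM per kb. The replicate SD of Slc3a2 and Slc43a3 in control was 9.12 and 5.30 CPM per kb, so the first 3 places there were within the spread. Slc36a2 held place 4 labelled knockout and place 17 in control, Slc7a10 place 6 labelled knockout and place 24 in control, and Slc1a3 place 9 labelled knockout and place 25 in control. In the other direction, Slc38a3 held place 32 labelled knockout and place 20 in control, Slc38a5 place 38 labelled knockout and place 27 in control, and Slc7a2 place 19 labelled knockout and place 11 in control. With the length of the longest transcript in place of merged exons, Slc1a5 again led in the libraries labelled knockout and Slc43a3 led in control.

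Some members lie close together in the genome, and no neighbouring pair had both genes called. On chromosome 11 Slc36a2 lies 6.8 kb from Slc36a3 and 19.3 kb from Slc36a1, yet of the 3 only Slc36a2 was called. On chromosome 15 Slc38a1, called higher, lies 44.5 kb from Slc38a2, which was not called and lies 295.1 kb from Slc38a4, called lower. On chromosome 2 Slc43a1, called higher, and Slc43a3, not called, are 73.0 kb apart, and on chromosome 7 Slc7a10, called higher, and Slc7a9, not tested, are 247.7 kb apart. Exons on the opposite strand also cover 31.9% of Slc1a1 (4430402I18Rik), 26.5% of Slc3a1 (Prepl), 13.3% of Slc7a4 (P2rx6) and 5.72% of Slc38a10 (Gm11769), and the strand setting of the counting is not given, so reads of such pairs cannot be told apart.

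Enzymes that use the carried amino acids were counted by pathway, to be read beside the 12.1% of all tested genes called higher, the 9.95% called lower and the median of -0.0018. Of 13 enzymes of branched-chain amino acid breakdown, 9 were called higher and 0 lower, with a median log2 fold change of 0.85. Hibch, a mitochondrial hydrolase of valine breakdown, had 55.5 and 56.6 CPM in the libraries labelled knockout, against 22.2 and 23 CPM in the control libraries (1.31 ± 0.11 (SE), edgeR adjusted p = 0.00384). Bcat2, the mitochondrial aminotransferase, had 112 and 125 CPM in the libraries labelled knockout, against 59 and 51.2 CPM in the control libraries (1.11 ± 0.12 (SE), edgeR adjusted p = 0.00713). Dbt, a subunit of the branched-chain ketoacid dehydrogenase, had 53.3 and 53.1 CPM in the libraries labelled knockout, against 29 and 26.2 CPM in the control libraries (0.95 ± 0.11 (SE), edgeR adjusted p = 0.00839). In these 3 genes replicates lay close and groups did not overlap, while the count of enzymes called higher was 4 without control replicate 1. Adipocytes are known for this pathway, and their markers were higher in the same libraries. Their part in the count was not tested. The carriers of these amino acids, Slc7a5, Slc43a1 and Slc43a2, had log2 fold changes of -0.07, 0.56 and -0.45.

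Arginine and polyamine enzymes went both ways, with 3 of 14 higher, 4 lower and a median of 0.20. Arg1, the arginase of liver and of some macrophages, had 24.1 and 24.9 CPM in the libraries labelled knockout, against 93.7 and 91.4 CPM in the control libraries (-1.92 ± 0.09 (SE), edgeR adjusted p = 0.00175). Ass1, which makes argininosuccinate, had 30.6 and 33.4 CPM in the libraries labelled knockout, against 63.4 and 70.8 CPM in the control libraries (-1.07 ± 0.12 (SE), edgeR adjusted p = 0.00703), and Gatm, of creatine synthesis, had 29.9 and 37.3 CPM in the libraries labelled knockout, against 65.2 and 59.2 CPM in the control libraries (-0.89 ± 0.15 (SE), edgeR adjusted p = 0.0173). All 3 were lower in both libraries labelled knockout, as was the arginine carrier Slc7a2, and Sat1, a polyamine acetylase, was also lower (-0.87 ± 0.17 (SE)). Nos2 (1.44 ± 0.33 (SE)), Oat (0.53 ± 0.12 (SE)) and Sms (0.64 ± 0.14 (SE)) were higher, as was Slc7a1. Without control replicate 1 or replicate 2 labelled knockout 0 of the 14 were called higher, 1 was without replicate 1 labelled knockout or with the replicate number as a block, and without control replicate 1 the count lower was 2. Macrophage markers, which summed to 5589 and 5316 CPM labelled knockout, against 9215 and 8215 CPM in control, moved with Arg1 and Slc7a2, and their part was not tested.

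Enzymes of glutamine, glutamate and glutathione were called in 4 of 17 cases, 2 higher and 2 lower (median 0.03). Gls2, a glutaminase of liver and pancreas, had 2.04 and 2.43 CPM in the libraries labelled knockout, against 11.6 and 8.49 CPM in the control libraries (-2.16 ± 0.28 (SE), edgeR adjusted p = 0.00983). Gpt, an alanine aminotransferase, had 22.9 and 22 CPM in the libraries labelled knockout, against 11.8 and 10.6 CPM in the control libraries (1.0 ± 0.15 (SE), edgeR adjusted p = 0.0137), and Cad, of pyrimidine synthesis, had 66.1 and 61.1 CPM in the libraries labelled knockout, against 32.3 and 38.8 CPM in the control libraries (0.84 ± 0.13 (SE), edgeR adjusted p = 0.0152). Gss, glutathione synthetase, was lower (-0.55 ± 0.13 (SE)). Without control replicate 1 none of the 17 was called, and when any of the other 3 libraries was left out 1 was called lower.

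Genes of the amino acid response, Atf4, the kinase gene Eif2ak4 that acts upstream of it and genes known to be induced with it, were called in 4 of 23 cases, 2 higher and 2 lower (median -0.16). Gpt2, the mitochondrial alanine aminotransferase, had 83.4 and 93.7 CPM in the libraries labelled knockout, against 29.5 and 40.3 CPM in the control libraries (1.34 ± 0.18 (SE), edgeR adjusted p = 0.0102), and Psat1, of serine synthesis, was also higher (0.76 ± 0.16 (SE)). Ddit4, an inhibitor of mTORC1, had 73.1 and 84.6 CPM in the libraries labelled knockout, against 127 and 129.7 CPM in the control libraries (-0.71 ± 0.11 (SE), edgeR adjusted p = 0.0155), and Nupr1, a stress factor of acinar cells, had 73.2 and 84 CPM in the libraries labelled knockout, against 349.6 and 199.5 CPM in the control libraries (-1.80 ± 0.29 (SE), edgeR adjusted p = 0.0156). The other 19 were not called. Without control replicate 1 the counts were 1 higher and 1 lower, without control replicate 2 they were 1 and 2, and without replicate 2 labelled knockout, without scaling or with DESeq2 4 were called higher. Some members known as ATF4 targets went different ways: Slc7a11 higher, Slc1a4 lower, Slc7a5, Slc3a2 and Slc38a2 not called. These are not a full set of such targets. Slc7a1 and Slc1a5, both called higher, were left out of this tally, and whether ATF4 acts on them was not judged here.

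Of 31 genes of amino acid sensing by mTORC1, 8 were called lower and 0 higher (median -0.15). Fnip2 had 58.4 and 68.1 CPM in the libraries labelled knockout, against 129.8 and 115 CPM in the control libraries (-0.95 ± 0.12 (SE), edgeR adjusted p = 0.0102). Flcn, its partner folliculin, had 77.4 and 75.1 CPM in the libraries labelled knockout, against 133 and 121 CPM in the control libraries (-0.73 ± 0.10 (SE), edgeR adjusted p = 0.0107). Sesn1, the leucine-binding sestrin 1, had 93.5 and 93.5 CPM in the libraries labelled knockout, against 142 and 134 CPM in the control libraries (-0.56 ± 0.09 (SE), edgeR adjusted p = 0.0182). Their groups did not overlap. The count of 8 was 1 without control replicate 1, 2 without replicate 2 labelled knockout, 4 without replicate 1 labelled knockout, and 5 without scaling beyond the library total or with the replicate number as a block.

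Transporters of other families were counted too, beside the 12.1% of all tested genes called higher and the 9.95% called lower. Of 11 tested plasma membrane carriers outside the 6 families, 2 were higher and 1 lower (median -0.09). Slc15a2, a dipeptide carrier, had 21.9 and 22.1 CPM in the libraries labelled knockout, against 11 and 9.91 CPM in the control libraries (1.08 ± 0.15 (SE), edgeR adjusted p = 0.0118). Slc6a20a, a proline carrier, had 2.19 and 5.31 CPM in the libraries labelled knockout, against 0.227 and 0.167 CPM in the control libraries (4.22 ± 0.63 (SE), edgeR adjusted p = 0.0138). Slc6a9, the glycine carrier GlyT1, had 8.35 and 7.60 CPM in the libraries labelled knockout, against 15.6 and 14.2 CPM in the control libraries (-0.90 ± 0.17 (SE), edgeR adjusted p = 0.0243). Of 12 tested mitochondrial and vesicular carriers, 2 were higher and 1 lower (median 0.11). Sfxn1, the mitochondrial serine carrier, had 134 and 132 CPM in the libraries labelled knockout, against 65.5 and 66.6 CPM in the control libraries (1.01 ± 0.09 (SE), edgeR adjusted p = 0.00440). Slc25a22, a mitochondrial glutamate carrier, had 60.2 and 74.4 CPM in the libraries labelled knockout, against 39.4 and 44.8 CPM in the control libraries (0.68 ± 0.14 (SE), edgeR adjusted p = 0.0315). Ctns, the lysosomal cystine exporter, had 37.2 and 36 CPM in the libraries labelled knockout, against 67.1 and 52.4 CPM in the control libraries (-0.71 ± 0.15 (SE), edgeR adjusted p = 0.0306). Leaving out 1 library gave 0 (without control replicate 1) to 5 (without replicate 1 labelled knockout) plasma membrane carriers higher and 0 or 1 lower, and 1 or 2 mitochondrial and vesicular carriers higher and 0 or 1 lower.

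The cell type markers with the smallest p in their lists show the size of these differences on the same scale. Fat was represented by Pparg, which had 51.3 and 53.7 CPM in the libraries labelled knockout, against 18.2 and 18.1 CPM in the control libraries (1.53 ± 0.11 (SE), edgeR adjusted p = 0.00308), and T and natural killer cells by Cd2, at 4.18 ± 0.15 (SE) on the log2 scale. Irf4 of plasma cells was at 3.20 ± 0.13 (SE), Pecam1 of endothelium at 0.75 ± 0.13 (SE), Cnp of Schwann cells at 0.76 ± 0.09 (SE) and Mylpf of skeletal muscle at 1.88 ± 0.33 (SE). Lower were Gp2 of acinar cells (-5.45 ± 0.79 (SE)), Cldn4 of duct (-2.42 ± 0.16 (SE)), Sst of islets (-2.53 ± 0.33 (SE)), Postn of fibroblasts (-1.75 ± 0.14 (SE)), Cx3cr1 of macrophages (-1.08 ± 0.09 (SE)), Csf3r of neutrophils (-0.96 ± 0.10 (SE)) and Ttr, listed for hepatocytes (-2.45 ± 0.38 (SE)). A single gene does not stand for its list. Of 10 plasma cell markers 4 were called higher and 1 lower (Sdc1, -1.69 ± 0.19 (SE)), and of 10 endothelial markers 2 were called higher and 8 were not called. Of 9 neutrophil markers tested 3 were called higher and 2 lower, with a median of 2.01. Of 5 hepatocyte markers tested 1 was called lower and 4 were not called, with a median of 0.14. Hepatocyte markers summed to 683.5 and 1007 CPM labelled knockout, against 79.7 and 243.3 CPM in control. Most of each sum was Cyp2e1, at 671 and 811 CPM labelled knockout, against 47.4 and 218 CPM in control. Apob added 190 CPM in replicate 2 labelled knockout, and Alb was at 0.479 to 2.18 CPM over all libraries. Smooth muscle and enterocyte markers gave no call, and markers of RNA quality gave none in 8, with sums of 10500 and 10430 CPM labelled knockout, against 10640 and 10330 CPM in control.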

How the data were processed

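Counts were taken from 4 mouse pancreas libraries, 2 labelled knockout and 2 control, grouped and numbered by their titles. RNA was isolated with TRIzol and digested with DNase before a VAHTS Universal V6 library kit was used, per the labels' protocols. The submitters' processing notes name the build GRCm38 and the tools featureCounts 2.0.1, STAR 2.7.6a, Trim Galore 0.6.6, SAMtools 1.7 and FastQC 0.11.9, with no role or order. The sources used here do not give the annotation release, the strand setting or the handling of multiply aligned reads. As deposited, each table holds raw integer counts per gene symbol, as its header and its values show.

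From these counts, edgeR 4.0.16 in R 4.3.3 was run over all genes that passed filterByExpr (19134), with TMM factors, a quasi-likelihood F test of group alone, and Benjamini-Hochberg adjustment at 0.05. "Called" means an adjusted p under 0.05. SE was taken as the size of the log2 fold change over the root of F, and intervals are at 95%. CPM use TMM-scaled totals of tested genes. CPM per kb divide by merged exonic length in GENCODE M21 on GRCm38, which also gave coordinates. Promoters are from RefSeq (GRCm38.p6). The edgeR step was tested on simulated data. Replicates were compared first: chi-square per degree of freedom of their counts was 33.9 between the libraries labelled knockout, 49.2 between controls and 206 between replicates 1 of the 2 groups, so no library repeated another.

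Members, gene lists and tests were chosen with earlier results of these data known. Per-library values are given for called members that averaged at least 1 CPM in either group. They are also given for Slc3a2, Slc7a5, Slc7a11, Slc1a5, Slc38a2, Slc38a3, Slc38a5 and Slc43a1. The same holds for the 3 called genes with the smallest p in each of 7 amino acid lists. Of the 16 marker lists, those with a called gene are shown by the fold change of the 1 with the smallest p. Other genes were named after their values were seen. Slc66a1 and Syncn were listed but matched no symbol in the tables. The alternatives tried were DESeq2 1.42.0 and limma-voom (limma 3.58.1) as other tests, 4 other scalings, 2 other filters, 2 stricter thresholds, a replicate block, and each library left out in turn, which assumes that a lone library varies as the other group does. Counting intervals and floors cover counting error only.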

Additional observations from a re-analysis of the deposited data

Results flagged for a closer look

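Slc7a9 was left out of the tested genes by the filter on low counts, yet it had 347 counts in replicate 2 labelled knockout and 0 in replicate 1, against 0 and 7 counts in the control libraries. It was picked out because a signal above the control level appeared in a gene outside the comparison. The level was 11.9 CPM in replicate 2 labelled knockout, against 0.293 CPM in control replicate 2. The 18 enterocyte markers summed to 1382 CPM in the same library, and their part in the Slc7a9 count was not tested.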

How the results depend on the processing

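All 18 called members kept their direction under each alternative. They stayed called in every case with DESeq2 size factors, upper quartile factors, TMM without immunoglobulin and T cell receptor genes, no low-count filter, and DESeq2, which added 3 (Slc38a2, Slc43a2 and Slc7a15). Of the 18, 17 stayed called without scaling beyond the library total (Slc38a10 lost), with a mean of at least 10 counts (Slc38a1 lost) and with limma-voom (Slc38a5 lost, Slc38a2 added). At an adjusted p under 0.01 the members called were 0 higher and 1 lower, and with at least a 2-fold change 6 were called higher and 4 lower. Leaving out 1 library gave 3 to 13 members higher and 1 to 9 lower, and 702 to 2338 genes higher and 424 to 1696 lower over all genes. The fewest calls came without control replicate 1, when 4 of the 18 stayed called (Slc1a3, Slc36a2, Slc38a3 and Slc7a10), and without control replicate 2 it was 12. The median of the members was 0.028 without scaling, 0.11 without the filter, 0.020 with a mean of at least 10 counts and -0.15 to 0.076 with 1 library left out, so its sign was not stable. Without scaling the median of all genes was 0.10, and changes are relative to that shift.

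Some members that were not called changed sign. Slc7a5 was at 0.028 without scaling and -0.34 to 0.26 with 1 library left out, and Slc7a6 at 0.0026 and -0.24 to 0.035. Slc3a2 ranged from -0.33 to 0.055, Slc3a1 from -0.99 to 2.69, Slc7a15 from -0.050 to 4.17 and Slc7a14 from -1.78 to 0.91 with 1 library left out. Slc7a14 was at -0.41 in limma-voom and -0.37 with the replicate block. The cause was not tested beyond the libraries named.

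Replicate numbers came from titles and only name the libraries: with 2 pairs, deviations of same-numbered libraries from their group means correlated at -0.022. With the replicate number as a block 8 members were called higher and 8 lower (Slc38a10 and Slc43a1 lost), and over all genes 1960 higher and 1432 lower. With 2 libraries in a group, differences the size of the replicate spread were not detectable, and members under 1 CPM rest on few counts.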
